A study of Mus musculus with 12 samples.

Results

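The genes described here encode the chaperones, folding enzymes and degradation machinery of the endoplasmic reticulum (ER), the stress sensors of this organelle and subunits of its protein-conducting channel, 36 genes in all. A gene was taken where the probe table of the platform paired a probe set with exactly 1 symbol and that symbol was on the list. All 36 genes were found, with 40 probe sets, among 19938 genes with 21789 such probe sets, and 35 of them stood under the listed symbol, while Ero1l is filed under its current name Ero1a. They fall into 11 chaperones and their cofactors, 10 disulfide isomerases and other folding enzymes, 7 genes of ER-associated degradation, 4 genes of the stress sensors with Xbp1, and 4 genes of the translocon. The rule used no measured value, but the members were chosen with earlier results of these data known. Their shares beside those of all probe sets are therefore descriptions.

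Their RNA was measured on 12 Affymetrix arrays (Mouse Gene 1.0 ST), hybridized with samples from primary hepatocytes (mouse HPC), the parenchymal cells of the liver, which were isolated with collagenase from male C57BL/6 mice and cultured on collagen in the serum-free medium HepatoZYME-SFM. Cells received 1 ng/ml recombinant human TGF-β1 for 20 min, 2 h or 4 h, or were left untreated, with 3 biological replicates in each of the 4 groups. TGF-β1 is a cytokine that drives growth arrest and matrix formation in the liver. The medium of all cultures was exchanged before stimulation, and untreated cells have no matched later time, so the time since this exchange and the treatment cannot be told apart. Mouse age is not given in the sources used here. Values are log2 signals, and those of 3 arrays of a group are given in the order of replicates 1, 2 and 3.

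Secreted and membrane proteins enter the ER through the translocon, bind chaperones of the BiP and calnexin systems, and receive disulfide bonds from oxidoreductases of the PDI family. Chains that fail to fold are extracted through membrane complexes built around SEL1L, the ubiquitin ligase HRD1 and the derlins, and are degraded by the proteasome. Hepatocytes secrete most plasma proteins and carry a large ER. When unfolded chains accumulate, the sensors IRE1, PERK and ATF6 start the unfolded protein response (UPR), in which XBP1 and ATF6 raise transcription of many of the genes described here through the ER stress response element (ERSE) in their promoters.

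The ERSE sequences are shown because they are the letters that several members share outside the list. The motif was searched on both strands as CCAAT and CCACG with 9 bases of any kind between them, in RefSeq windows of GRCm38.p6 that reach from 250 bases before to 50 bases after each gene start. A window was given for 30 of the 36 members, and Hyou1, Sil1, Manf, Derl1, Atf6 and Sec61a1 were not searched. ERSE stood in 9 of 30 members (30%), against 37 of 27025 genes (0.137%). Each line below gives a member, the position and strand of the printed run, and the run itself, with the fixed letters of ERSE in capitals and 10 bases on each side.
Hspa5, chr2:34772015-34772053, + strand: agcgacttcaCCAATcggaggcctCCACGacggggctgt
Hsp90b1, chr10:86705628-86705666, - strand: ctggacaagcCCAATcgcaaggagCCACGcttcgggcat
Hsp90b1, chr10:86705523-86705561, + strand: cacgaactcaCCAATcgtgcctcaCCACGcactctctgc
Calr, chr8:84847065-84847103, + strand: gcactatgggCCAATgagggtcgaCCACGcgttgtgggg
Canx, chr11:50325790-50325828, - strand: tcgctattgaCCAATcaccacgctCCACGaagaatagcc
Dnajc3, chr14:118937817-118937855, + strand: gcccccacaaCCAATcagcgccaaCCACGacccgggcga
Pdia6, chr12:17266481-17266519, + strand: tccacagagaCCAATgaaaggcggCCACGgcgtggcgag
Creld2, chr15:88819510-88819548, - strand: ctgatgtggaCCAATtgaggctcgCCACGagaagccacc
Syvn1, chr19:6046522-6046560, + strand: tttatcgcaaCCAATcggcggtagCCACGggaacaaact
Derl3, chr10:75893232-75893270, - strand: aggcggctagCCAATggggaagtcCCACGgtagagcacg

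Every element lies upstream of its gene start, from 44 to 26 bases before it in Syvn1 to 212 to 194 bases before it in the more distant element of Hsp90b1. The second form, ERSE-II, was searched on both strands as ATTGG and CCACG with 1 base of any kind between them, and stood in 2 of 30 members (6.67%), against 12 of 27025 genes (0.0444%). Its letters are shown for these members, with the fixed letters in capitals.
Dnajb11, chr16:22857852-22857862, + strand: ATTGGcCCACG
Herpud1, chr8:94386377-94386387, + strand: ATTGGgCCACG

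In Herpud1 the element lies 52 to 42 bases before the gene start, and in Dnajb11 at bases 8 to 18 after it. The core of the UPR element, TGACGTGG on both strands, stood in 1 of 30 members, Txndc5 (3.33%), against 193 of 27025 genes (0.714%). Both ERSE forms contain the CCAAT box (CCAAT or its reverse ATTGG) and CCACG, and the UPR element core contains the reverse of CCACG. These parts alone were common: CCAAT stood in 24 of 30 members (80%) and 41.1% of all genes, and CCACG in 26 of 30 members (86.7%) and 35.5% of all genes. With 1 of the 10 fixed letters of ERSE allowed to differ, 16 of 30 members (53.3%) and 1.72% of all genes matched. A match is a description of the letters only.

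The arrays had like medians, from 6.82 to 6.93 over all probe sets, and 0 pairs of arrays were identical. Pmepa1, a TGF-β target used as a check that the cells responded, measured 10.30, 10.76 and 10.48 at 4 h, against 7.62, 7.81 and 7.79 in untreated cells. The hepatocyte marker Alb averaged 14.6 at every time point, the highest of 14 hepatocyte markers. The summed linear signal of these 14 lay between 161963 and 184238 at 4 h, against 176782 to 197650 in untreated cells. Over all tested probe sets, arrays with the same replicate number deviated together, and replicate 1 stood apart from replicates 2 and 3. The paper reports a strong batch effect on its mouse hepatocyte chips, and the values used here were taken as not adjusted for it. How this effect relates to replicate 1 was not tested. For the members, the untreated arrays of replicates 2 and 3 were often high: Sdf2l1 measured 10.40 and 10.44 there and 9.48 in replicate 1, and Hspa5 13.71 and 13.70 there and 12.85 in replicate 1. The change from the untreated array of the same replicate was highest in replicate 1 for 24 of 36 members at 20 min (66.7%, against 41.5% of all probe sets), for 25 at 2 h (69.4%, against 37.3%) and for 23 at 4 h (63.9%, against 41.7%).

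After 4 h of TGF-β1, 16 of the 36 genes (44.4%) were lower than in untreated cells at an adjusted p under 0.05 (limma, Benjamini-Hochberg over all 21789 probe sets), and 0 were higher. Of all tested probe sets 3.02% were lower and 1.57% higher by the same test, and 5.43% were lower among the probe sets at or above the median signal, where all members lie. The log2 changes of these 16 ran from -1.22 to -0.27, and the largest falls were those of the chaperone cofactor Sdf2l1, the derlin Derl3, the secreted ER protein Creld2 and the disulfide isomerase Pdia4. The chaperones held 8 of the 16, the folding enzymes 3, ER-associated degradation 3, the sensors 2 and the translocon 0. In bulk RNA, fewer cells of a type and less RNA per cell cannot be told apart.

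Each of the 16 was lower in 3 of 3 replicates, and in 11 of them the 4 h and untreated arrays did not overlap. Both traits follow in part from the call, which used the same arrays. Of all 36 members, 25 were lower in 3 of 3 replicates, against 17.4% of all probe sets. In 11 of the 36 the groups did not overlap and 4 h was lower, against 5.58% of all probe sets. Over all 36 genes 33 estimates lay below 0 (43% of all probe sets), 24 of them at an unadjusted p under 0.05 (9.49% of all). The other 3 genes, Txndc5, Herpud1 and Xbp1, had an estimate above 0 (57% of all probe sets), 0 of them at an unadjusted p under 0.05 (7.54% of all). The median change of all 36 was -0.28, against 0.02 over all probe sets. The count rested on replicates 2 and 3: limma called 0 members without replicate 2 and 0 without replicate 3. In these fits the calls over the whole table also fell, to 72 and 16 lower probe sets. Without replicate 1 limma called 16 members, beside 493 lower probe sets (2.26%) of the whole table. Without the untreated array of replicate 2 or of replicate 3 it called 4 and 5, without the 4 h array of replicate 1, 2 or 3 the counts were 10, 4 and 4, and a fit with no replicate block gave 2. The calls over the whole table moved too, with 657 lower probe sets in the fit of all arrays, 281 and 360 without the untreated array of replicate 2 or 3, 289, 261 and 236 without the 4 h array of replicate 1, 2 or 3, and 19 (0.0872%) with no replicate block.

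**Figure D1:**
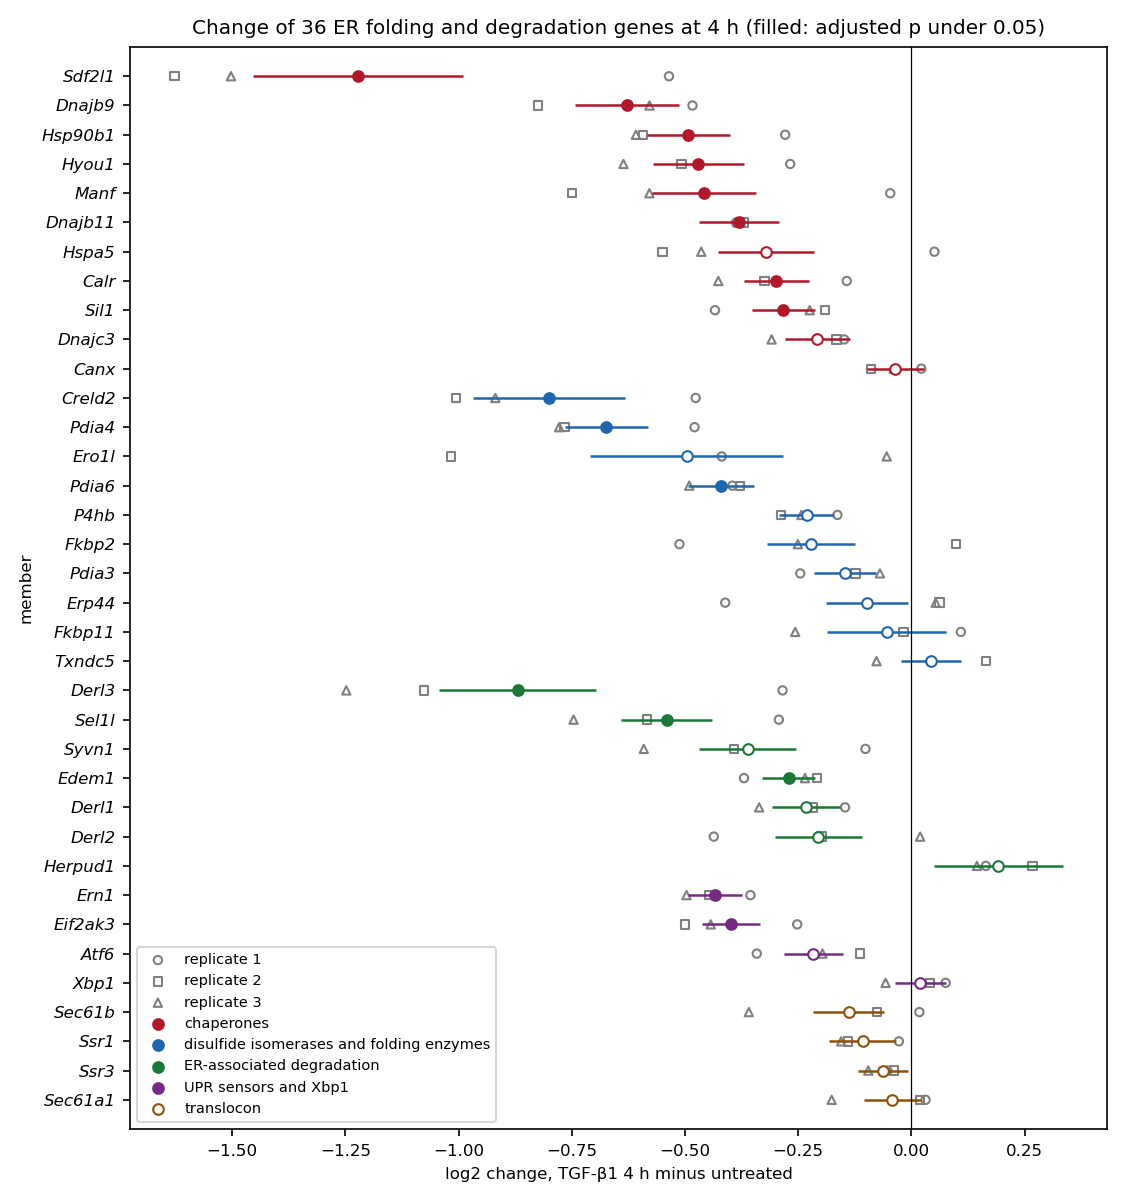
Change of each member at 4 h against untreated cells (x axis, log2) by gene (y axis), grouped by role. Coloured points with bars are limma estimates with standard errors, filled where the adjusted p is under 0.05, and grey circles, squares and triangles are replicates 1, 2 and 3; 16 points are filled, all left of 0, and Sdf2l1 at -1.22 lies farthest left.

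Among the chaperones, 8 of 11 fell at 4 h, with a median change of -0.38 over all 11. Sdf2l1, a cofactor that keeps client proteins of BiP soluble (chr16:17130138-17132383 of GRCm38.p6), measured 8.95, 8.78 and 8.94 at 4 h, against 9.48, 10.40 and 10.44 in untreated cells. Every 4 h array was below every untreated array, and replicates 2 and 3 had the larger distances. Sdf2l1 fell by 1.22 ± 0.23 (standard error; limma, adjusted p = 0.0142), to 0.429 of its untreated level. At 20 min it measured 9.40, 9.17 and 8.95, and at 2 h 9.61, 9.26 and 9.04. In replicate 1 it was therefore below its untreated array of 9.48 at 20 min and 4 h and above it at 2 h.

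Sdf2l1 had the largest fall of the list and no ERSE letters in its window, also with 1 letter allowed to differ. Its 250 upstream bases (chr16:17132384-17132633, - strand) held 3 CCAAT boxes and 3 CCACG, shown in capitals on either strand.
Sdf2l1: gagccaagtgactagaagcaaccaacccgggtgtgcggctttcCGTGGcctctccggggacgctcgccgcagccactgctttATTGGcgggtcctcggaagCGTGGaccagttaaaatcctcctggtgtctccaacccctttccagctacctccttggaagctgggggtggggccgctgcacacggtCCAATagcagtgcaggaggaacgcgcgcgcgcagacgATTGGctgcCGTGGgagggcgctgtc

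Dnajb9 (ERdj4), a J-domain cofactor of BiP, measured 11.45, 11.22 and 11.29 at 4 h, against 11.93, 12.05 and 11.87 in untreated cells. The groups did not overlap, and the 3 replicates fell alike, by 0.48, 0.82 and 0.58. Its change was -0.63 ± 0.12 (limma, adjusted p = 0.012). At 20 min its arrays read 11.47, 11.55 and 11.62, and at 2 h 11.84, 11.30 and 11.75, where replicates 1 and 3 lay close to the untreated arrays. Dnajb11 (ERdj3), another J-domain cofactor that binds unfolded chains, measured 9.19, 9.44 and 9.48 at 4 h, against 9.57, 9.81 and 9.86 in untreated cells. Its replicates fell by 0.39, 0.37 and 0.38, the closest agreement between replicates among the called chaperones, and the groups did not overlap. The change was -0.38 ± 0.09 (limma, adjusted p = 0.0325), with values of 9.27, 9.44 and 9.41 at 20 min and 9.72, 9.55 and 9.57 at 2 h.

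Hsp90b1 (GRP94), the HSP90 of the ER, measured 12.16, 12.15 and 12.01 at 4 h, against 12.44, 12.75 and 12.62 in untreated cells, and the groups did not overlap. It fell by 0.49 ± 0.09 (limma, adjusted p = 0.0127). Its values were 12.34, 12.23 and 12.20 at 20 min and 12.43, 12.23 and 12.09 at 2 h, and at 2 h replicate 1 was near its untreated array. Hyou1 (GRP170), which exchanges the nucleotide of BiP, measured 10.36, 10.68 and 10.48 at 4 h, against 10.63, 11.19 and 11.12 in untreated cells. The groups overlapped, because the untreated array of replicate 1 lay below the 4 h array of replicate 2, and all 3 replicates fell. Hyou1 changed by -0.47 ± 0.10 (limma, adjusted p = 0.0237), with 10.56, 10.75 and 10.61 at 20 min and 10.73, 10.80 and 10.55 at 2 h.

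Manf, a small ER protein that is secreted on stress, measured 9.31, 9.17 and 9.28 at 4 h, against 9.36, 9.92 and 9.85 in untreated cells. The groups did not overlap, but replicate 1 fell by only 0.05, and replicates 2 and 3 by 0.75 and 0.58. Its change of -0.46 ± 0.11 was close to the threshold (limma, adjusted p = 0.0461), and its arrays read 9.34, 9.46 and 9.43 at 20 min and 9.35, 9.21 and 9.40 at 2 h. Calr (calreticulin), a lectin chaperone of glycoproteins, measured 12.28, 12.40 and 12.32 at 4 h, against 12.42, 12.72 and 12.75 in untreated cells, without overlap. Calr changed by -0.30 ± 0.07 (limma, adjusted p = 0.0372), with 12.38, 12.48 and 12.45 at 20 min and 12.48, 12.53 and 12.43 at 2 h.

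Sil1, the other nucleotide exchange factor of BiP, measured 9.87, 9.46 and 9.44 at 4 h, against 10.31, 9.65 and 9.66 in untreated cells. Its groups overlapped because replicate 1 lay above the others at every time point. Within replicates it fell by 0.43, 0.19 and 0.22, largest in replicate 1, and the change was -0.28 ± 0.07 (limma, adjusted p = 0.0406). Sil1 passed in only 4 of the 19 alternatives that keep the threshold at an adjusted p under 0.05, the fewest of the 16, and its call was lost without replicate 1 (limma, adjusted p = 0.164), with the random block (0.42), with centring (0.0573) and with the trended prior (0.052), among others. Its arrays read 9.99, 9.58 and 9.56 at 20 min and 10.20, 9.69 and 9.55 at 2 h.

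Hspa5 (BiP), the HSP70 of the ER and the central chaperone of the UPR, did not pass the test at 4 h. Its arrays read 12.90, 13.16 and 13.24 at 4 h, against 12.85, 13.71 and 13.70 in untreated cells, so replicate 1 stood 0.05 higher and replicates 2 and 3 stood 0.55 and 0.46 lower. The change was -0.32 ± 0.11 (limma, adjusted p = 0.124, 95% interval -0.55 to -0.09). Without replicate 1 it was -0.51 (limma, adjusted p = 0.00566), and over all alternatives its adjusted p in limma ranged from 0.00566 to 0.996. Dnajc3 (p58IPK), a J-domain protein of the ER lumen, stood at -0.21 ± 0.07 (limma, adjusted p = 0.146). Canx (calnexin), the membrane-bound lectin chaperone, had the smallest estimate among the chaperones, -0.04 ± 0.06 (limma, adjusted p = 0.848), with an interval from -0.17 to 0.10.

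**Figure D2:**
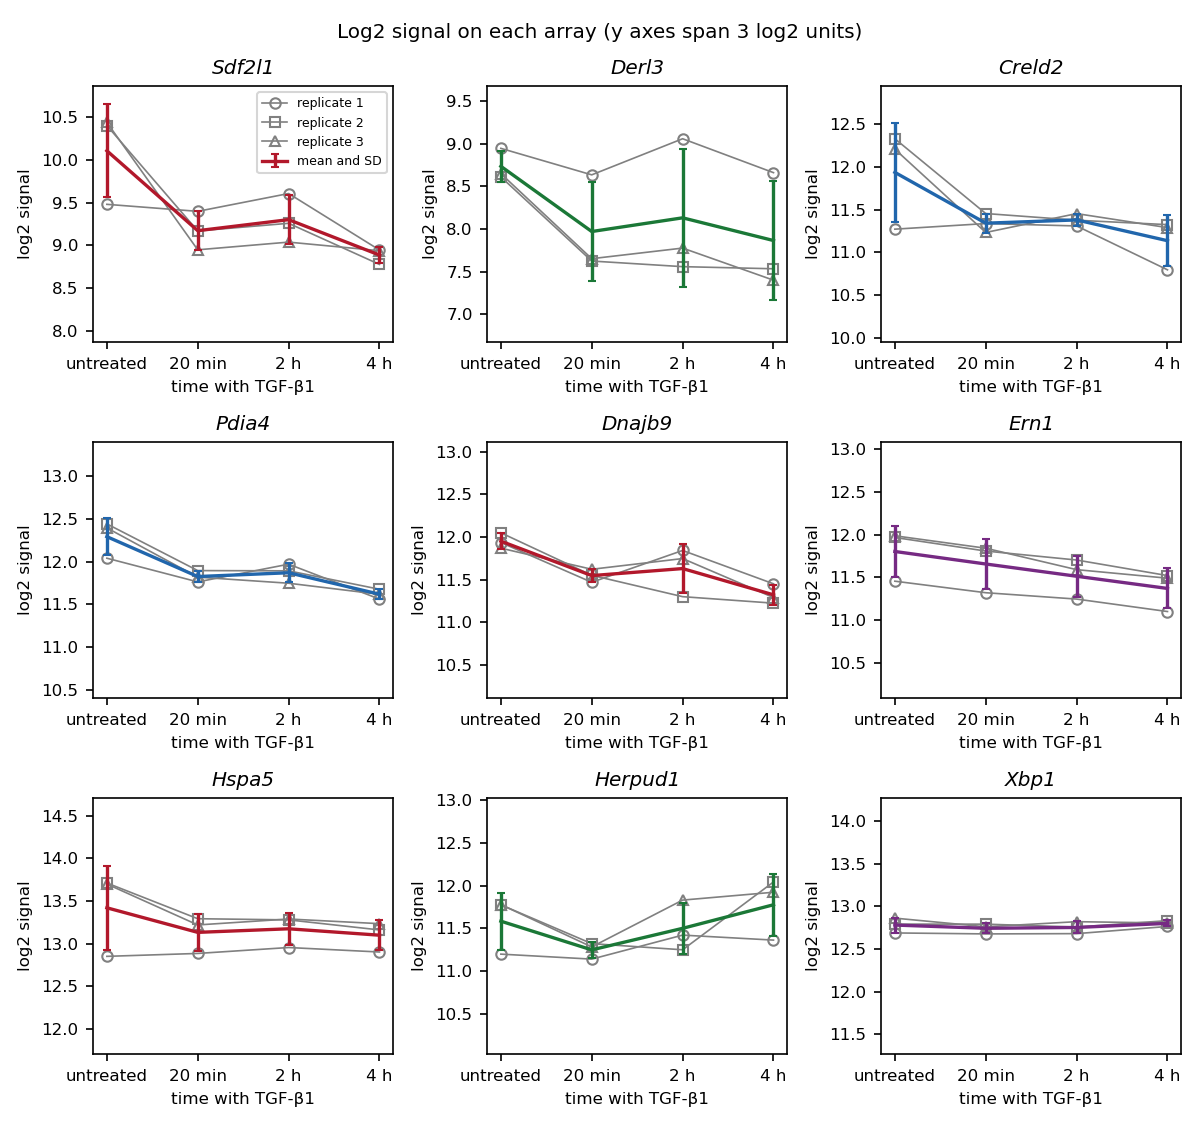
Log2 signal (y axis) of 9 members by time with TGF-β1 (x axis: untreated, 20 min, 2 h, 4 h). Grey circles, squares and triangles joined by lines are replicates 1, 2 and 3, and coloured lines are the mean with the SD; Sdf2l1 and Creld2 start high in replicates 2 and 3 only, Derl3 stays high in replicate 1, and Xbp1 is level.

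Of the 10 disulfide isomerases and other folding enzymes, 3 fell at 4 h, and the median change of all 10 was -0.23. Creld2, an ER stress-inducible protein that is grouped here with the oxidoreductases (chr15:88819646-88826681), measured 10.79, 11.32 and 11.29 at 4 h, against 11.27, 12.33 and 12.21 in untreated cells. All 3 replicates fell, by 0.48, 1.01 and 0.92, and the groups overlapped through the low untreated array of replicate 1. The change was -0.80 ± 0.17 (limma, adjusted p = 0.0214). At 20 min its arrays read 11.34, 11.45 and 11.23 and at 2 h 11.31, 11.38 and 11.45, which lie within a narrow band, with replicate 1 slightly above its own untreated array at both times.

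Pdia4 (ERp72), a disulfide isomerase (chr6:47796141-47813512), measured 11.56, 11.68 and 11.62 at 4 h, against 12.04, 12.44 and 12.39 in untreated cells. The groups lay well apart, and all 3 replicates fell, by 0.48, 0.77 and 0.78. Pdia4 changed by -0.67 ± 0.09 (limma, adjusted p = 0.0033), the lowest p among the members, with 11.76, 11.89 and 11.82 at 20 min and 11.97, 11.89 and 11.75 at 2 h. Its other probe set, with a lower signal, changed by -0.72 ± 0.13 (limma, adjusted p = 0.0109) and had non-overlapping groups too. Under the same 19 alternatives Pdia4 passed in 17, the most of any member, and was lost without replicate 2 and without replicate 3. At the methods' threshold, which also asks for at least a 2-fold change, it did not pass.

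Pdia6 (P5), an isomerase that also binds the lumenal side of the sensors, measured 10.33, 10.47 and 10.29 at 4 h, against 10.72, 10.85 and 10.78 in untreated cells. The groups did not overlap, and the replicates fell alike, by 0.40, 0.38 and 0.49. The change was -0.42 ± 0.07 (limma, adjusted p = 0.00958), with 10.40, 10.47 and 10.29 at 20 min and 10.71, 10.55 and 10.42 at 2 h. At 2 h replicate 1 was close to its untreated array.

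P4hb (PDI), the founding isomerase of the family, lay next to the threshold at -0.23 ± 0.06 (limma, adjusted p = 0.0591) and was lower in 3 of 3 replicates. Pdia3 (ERp57), the isomerase that works with calnexin and calreticulin, stood at -0.15 ± 0.07 (limma, adjusted p = 0.309). Ero1l, the oxidase that recharges PDI, had a large estimate with a large error, -0.50 ± 0.21 (limma, adjusted p = 0.258). Its replicates differed widely in level, with 12.90, 10.95 and 11.30 at 4 h, against 13.32, 11.97 and 11.36 in untreated cells, and replicate 3 fell by only 0.05. The prolyl isomerases Fkbp2 and Fkbp11 stood at -0.22 ± 0.10 and -0.05 ± 0.13, and the thioredoxin-like proteins Erp44 and Txndc5 at -0.10 ± 0.09 and 0.04 ± 0.07. None of these 4 passed in limma, with adjusted p from 0.271 for Fkbp2 to 0.891 for Fkbp11.

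In ER-associated degradation 3 of 7 genes fell at 4 h, with a median change of -0.27. Derl3, a derlin of the membrane complex that pulls misfolded proteins out of the ER (chr10:75893398-75895941), measured 8.66, 7.53 and 7.40 at 4 h, against 8.94, 8.61 and 8.65 in untreated cells. Replicate 1 stayed above the 4 h arrays of the other replicates and above the untreated arrays of replicates 2 and 3, so the groups overlapped. Within replicates Derl3 fell by 0.28, 1.08 and 1.25, and the change was -0.87 ± 0.17 (limma, adjusted p = 0.0177). Replicates 2 and 3 were already at 7.62 and 7.65 at 20 min and at 7.56 and 7.78 at 2 h, while replicate 1 read 8.63 and 9.06 at these times.

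The 250 bases before the start of Derl3 (chr10:75893148-75893397, + strand) held 5 CCAAT boxes and 3 CCACG, in capitals on either strand. They are shown because the ERSE of the largest fall in this group reads on the opposite strand here, as CGTGG followed by ATTGG.
Derl3: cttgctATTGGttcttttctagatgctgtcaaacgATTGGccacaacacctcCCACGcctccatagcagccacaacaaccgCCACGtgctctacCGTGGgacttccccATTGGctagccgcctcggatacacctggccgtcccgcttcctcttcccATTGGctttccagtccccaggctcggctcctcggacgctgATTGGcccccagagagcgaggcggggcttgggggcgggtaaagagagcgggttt

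Sel1l, the adaptor that holds the HRD1 complex together, measured 9.71, 9.89 and 9.70 at 4 h, against 9.999, 10.48 and 10.45 in untreated cells, without overlap. It fell by 0.54 ± 0.10 (limma, adjusted p = 0.013), and its arrays read 9.84, 9.88 and 9.82 at 20 min and 9.91, 10.06 and 9.73 at 2 h. Edem1, a lectin that hands misfolded glycoproteins to degradation, measured 11.28, 11.18 and 11.10 at 4 h, against 11.65, 11.39 and 11.33 in untreated cells. The groups did not overlap, and the fall was the smallest of the called members, at -0.27 ± 0.06 (limma, adjusted p = 0.0246). Edem1 read 11.44, 11.16 and 11.11 at 20 min and 11.42, 11.26 and 11.18 at 2 h.

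Syvn1 (HRD1), the ubiquitin ligase of the complex, stood at -0.36 ± 0.11 (limma, adjusted p = 0.0883) and was lower in 3 of 3 replicates. Without replicate 1 its change was -0.49 (limma, adjusted p = 0.0191), within a range of 0.00574 to 0.843 over all alternatives. Derl1 and Derl2, the other derlins, stood at -0.23 ± 0.08 and -0.21 ± 0.10 (limma, adjusted p = 0.116 and 0.304). The difference between Derl3 and the other derlins was not tested.

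Herpud1, a membrane protein of the degradation complex, was the only gene of this group with an estimate above 0 at 4 h. It measured 11.36, 12.05 and 11.92 at 4 h, against 11.20, 11.78 and 11.78 in untreated cells, higher in each replicate but not past the test (0.19 ± 0.14; limma, adjusted p = 0.561). At 20 min its arrays read 11.14, 11.32 and 11.28, below the untreated array of the same replicate in each case, and the estimate was -0.34 ± 0.14 (limma, adjusted p = 0.565). Between 20 min and 4 h Herpud1 stood 0.53 ± 0.14 higher at 4 h (limma, adjusted p = 0.154), which is the only positive difference among the 3 members with an unadjusted p under 0.05 in that comparison.

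Of the UPR sensors and Xbp1, 2 of 4 genes fell at 4 h, with a median change of -0.31. Ern1 encodes IRE1, the kinase and nuclease that splices the Xbp1 transcript (chr11:106397620-106487796). It measured 11.10, 11.52 and 11.49 at 4 h, against 11.45, 11.97 and 11.98 in untreated cells. Replicate 1 lay below the other replicates throughout, so the groups overlapped, but the 3 replicates fell by much the same amount, 0.36, 0.45 and 0.50. The change was -0.43 ± 0.06 (limma, adjusted p = 0.00355), with 11.32, 11.81 and 11.84 at 20 min and 11.24, 11.70 and 11.59 at 2 h. In all 3 replicates Ern1 was lower at each later time point than at the one before.

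Eif2ak3 encodes PERK, the kinase that slows translation on ER stress (chr6:70844484-70905241). It measured 8.24, 8.08 and 8.08 at 4 h, against 8.49, 8.58 and 8.52 in untreated cells, without overlap. It fell by 0.40 ± 0.06 (limma, adjusted p = 0.00628), and its arrays read 8.24, 8.22 and 8.20 at 20 min and 8.27, 8.20 and 8.28 at 2 h, below all untreated arrays at both times. Atf6, the membrane-bound transcription factor that is also a sensor, stood at -0.22 ± 0.07 (limma, adjusted p = 0.0926) and was lower in 3 of 3 replicates. Xbp1, the transcription factor downstream of IRE1, was level, with 12.76, 12.83 and 12.80 at 4 h, against 12.69, 12.79 and 12.86 in untreated cells, a change of 0.02 ± 0.06 (limma, adjusted p = 0.912) with an interval from -0.10 to 0.14. The probe set measures the gene as a whole and does not separate the spliced from the unspliced Xbp1 transcript.

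The translocon genes had the median change closest to 0 of the 5 groups, -0.08, with 0 of 4 called. Sec61a1 and Sec61b, subunits of the channel, stood at -0.04 ± 0.06 and -0.14 ± 0.08, and Ssr1 and Ssr3, subunits of the translocon-associated protein complex, at -0.11 ± 0.07 and -0.06 ± 0.05. Their adjusted p in limma lay between 0.416 and 0.811, and at 4 h 0 of the 4 had an unadjusted p under 0.05. The difference between the groups of members was not tested, and their counts and medians are given as a description.

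At 20 min and at 2 h limma called 0 members, as it called 0 of all probe sets. At 20 min 36 of 36 estimates lay below 0, against 49.4% of all probe sets, and 23 members were lower at an unadjusted p under 0.05, against 5.87% of all probe sets. At 2 h 34 of 36 estimates lay below 0 (46.5% of all) and 19 members were lower at an unadjusted p under 0.05 (3.96% of all). At both times 0 members were higher at an unadjusted p under 0.05, against 2.59% of all probe sets at 20 min and 2.33% at 2 h. The lowest adjusted p in limma was 0.209 at 20 min, for Pdia6, and 0.177 at 2 h, for Ern1. The median change of the 36 genes was -0.22 at 20 min, -0.16 at 2 h and -0.28 at 4 h, against 0.00, 0.01 and 0.02 over all probe sets. All 3 comparisons use the same untreated arrays, so they are not independent of each other. Without replicate 1, limma called 4 members at 20 min and 8 at 2 h, and without the untreated array of replicate 1 it called 2 at each of these times. The shares of all probe sets called at 20 min and 2 h in these fits are not given here. These counts therefore cannot tell a change of the members from one of the whole table.

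Sdf2l1 stood at -0.94 at 20 min and -0.81 at 2 h, Derl3 at -0.76 and -0.60, Creld2 at -0.60 and -0.56, and Pdia4 at -0.47 and -0.42 (limma, adjusted p from 0.206 to 0.443 in these 8 tests). Ern1 stood at -0.15 at 20 min and -0.29 at 2 h. For the 16 genes called at 4 h, the median change in replicates 1, 2 and 3 was -0.18, -0.45 and -0.44 at 20 min, -0.01, -0.40 and -0.42 at 2 h, and -0.36, -0.55 and -0.58 at 4 h. By the median, these genes were thus close to untreated levels in replicate 1 at 2 h, and in replicates 2 and 3 they were not. Single genes differed from this at 2 h. In replicate 1 Edem1, Eif2ak3 and Ern1 stood at -0.23, -0.22 and -0.21, and in replicate 2 Sil1 stood at 0.04.

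**Figure D3:**
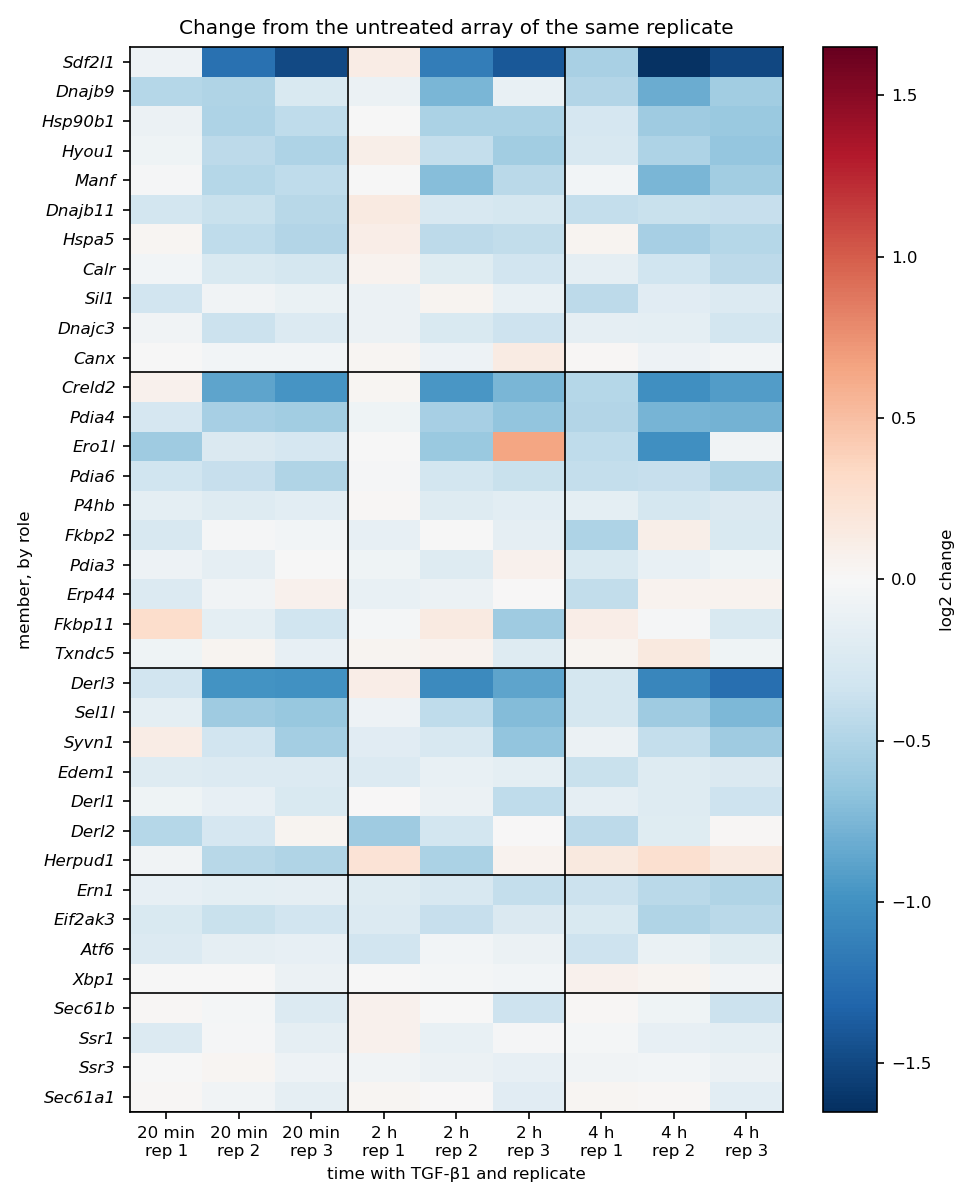
Change from the untreated array of the same replicate (colour, log2, blue lower and red higher) for 36 members (rows, by role) in replicates 1, 2 and 3 at 20 min, 2 h and 4 h (columns). The columns of replicates 2 and 3 are blue at all 3 times for Sdf2l1, Creld2 and Derl3, while those of replicate 1 are pale at 20 min and 2 h.

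Between the later time points limma called 0 members. This held for 2 h against 20 min, 4 h against 20 min and 4 h against 2 h. The differences themselves do not use the untreated arrays, but the spread behind their p-values was estimated from all arrays, the untreated ones included. Of all probe sets, 0% were called at 2 h against 20 min, 0.184% were lower and 0.436% higher at 4 h against 20 min, and 0.0275% were lower and 0.0505% higher at 4 h against 2 h. At an unadjusted p under 0.05, 7 members were lower at 4 h than at 2 h (4.54% of all probe sets) and 0 were higher (4.29% of all), and these were Dnajb9, Dnajb11, Sil1, Pdia4, Pdia6, Ero1l and Ern1. At 4 h against 20 min, Pdia4 and Ern1 were lower by this measure (3.86% of all) and Herpud1 was higher (5.92% of all). At 2 h against 20 min, Ern1 was lower (1.77% of all), and Dnajb11 and Pdia6 stood 0.24 and 0.17 higher (3.34% of all). The lowest adjusted p was that of Ern1 at 4 h against 20 min, with a difference of -0.29 ± 0.06 (limma, adjusted p = 0.065).

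Over the time course as a whole, limma's moderated F test called 4 of the 36 members, against 1.4% of all probe sets. They were Ern1 (adjusted p = 0.0203), Pdia4 (adjusted p = 0.0209), Eif2ak3 (adjusted p = 0.0347) and Pdia6 (adjusted p = 0.0359). All 4 had also been called at 4 h, on the same arrays. At an unadjusted p under 0.05, 22 members passed, against 12.1% of all probe sets. Without replicate 1 the F test called 13 members, without replicate 2 or 3 it called 0, and without the untreated array of replicate 1 it called 12. The shares of all probe sets called by the F test in these fits are not given here. A change of the members and one of the whole table therefore cannot be told apart in these counts.

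Members with and without the ERSE letters printed above overlapped in their change. The 9 members with ERSE had a median change of -0.36 at 4 h, with 5 of 9 lower, and ranged from -0.87 in Derl3 to -0.04 in Canx. The 21 members without it had a median of -0.22, with 8 of 21 lower, and ranged from -1.22 in Sdf2l1 to 0.19 in Herpud1, which carries ERSE-II. At 20 min the medians were -0.29 with ERSE and -0.18 without, and at 2 h -0.25 and -0.13. With 1 fixed letter of ERSE allowed to differ, the split was closer. The 16 members that matched had a median of -0.31 at 4 h, with 7 of 16 lower. The 14 that did not had a median of -0.25, with 6 of 14 lower. The called members Hyou1, Sil1 and Manf had no window and are in neither group. These are descriptions over genes, which are not replicates, and no test was made.

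**Figure D4:**
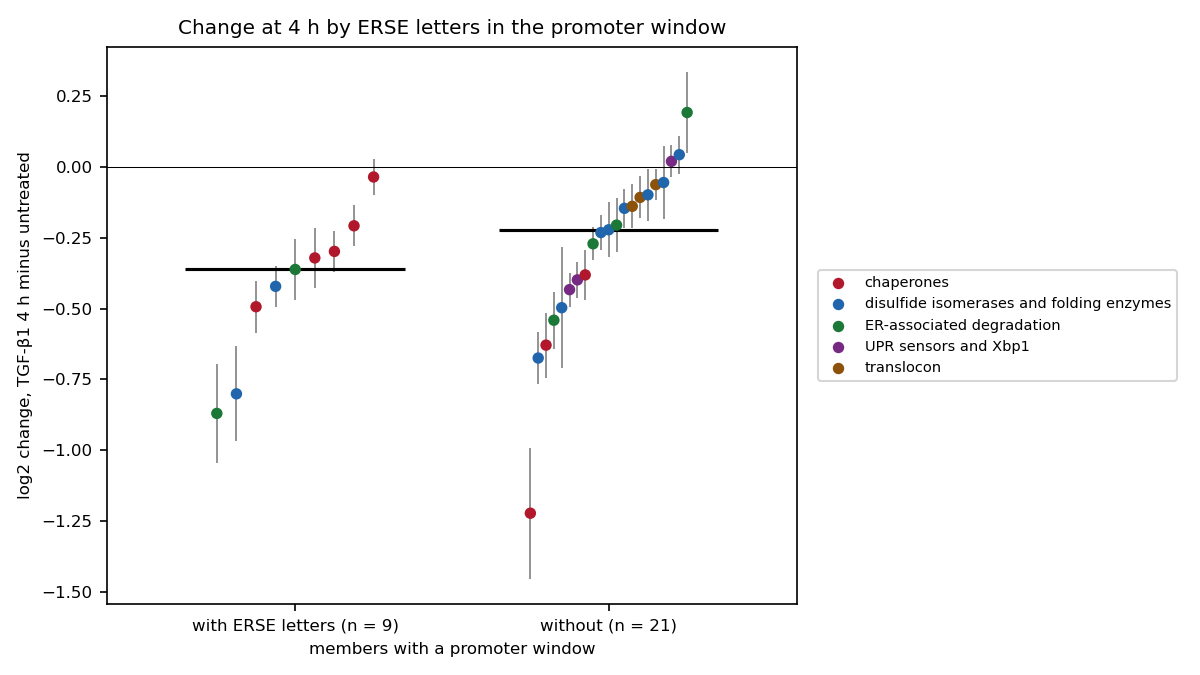
Change at 4 h against untreated cells (y axis, log2) of members with and without the ERSE letters in their promoter window (x axis), coloured by role. Points with bars are limma estimates with standard errors and black lines are medians; the medians are -0.36 for 9 members and -0.22 for 21 members, and the ranges overlap over most of their length.

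Other genes of the same compartment are given for comparison, beside the 3.02% of all probe sets that were lower. Of 27 other ER chaperones and folding enzymes, 1 (3.7%) fell and 0 rose at 4 h, and the gene was the HSP70-like Hspa13 (-0.27 ± 0.06; limma, adjusted p = 0.0316). Of 23 other genes of ER-associated degradation, 2 (8.7%) fell and 0 rose, the lectin Os9 (-0.29 ± 0.07; limma, adjusted p = 0.0423) and Edem2, a relative of Edem1 (-0.26 ± 0.06; limma, adjusted p = 0.0438). Of 23 other genes of the translocon, signal peptidase and oligosaccharyltransferase, 1 (4.35%) fell and 0 rose, the signal peptidase subunit Spcs3 (-0.26 ± 0.06; limma, adjusted p = 0.028). In this last list 21 of 23 estimates lay below 0 (43% of all probe sets) and 11 were lower at an unadjusted p under 0.05 (9.49% of all), while 5 of 27 and 4 of 23 were lower by that measure in the other lists. The median changes of these 3 lists were -0.08, -0.03 and -0.13. The difference between these lists and the members was not tested.

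Of 18 other UPR transducers and targets of the PERK branch, 4 (22.2%) fell and 0 rose at 4 h, against 3.02% and 1.57% of all probe sets. The median change of the 18 was -0.05, and 6 of the 18 estimates lay above 0 (57% of all probe sets). Ddit3 (CHOP), a transcription factor induced through PERK, measured 7.88, 7.79 and 7.86 at 4 h, against 8.62, 8.84 and 8.88 in untreated cells, without overlap, and fell by 0.94 ± 0.14 (limma, adjusted p = 0.00525). Atf3, a stress-induced transcription factor, measured 12.32, 10.61 and 10.69 at 4 h, against 12.70, 11.74 and 11.72 in untreated cells. Replicate 1 lay above the others at both times, and the change was -0.85 ± 0.14 (limma, adjusted p = 0.00648).

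On the same arrays some markers of other liver cells fell too. Of 15 Kupffer cell and macrophage markers, 7 (46.7%) were lower and 0 higher at 4 h, with a median change of -0.44. Beside each count of called markers here, 3.02% of all probe sets were lower and 1.57% higher. The summed linear signal of these 15 markers lay between 4732 and 5574 at 4 h, against 6171 to 7112 in untreated cells. Cd68 weighs most in this sum, with a mean signal of 11.74 at 4 h and 11.98 in untreated cells. Of 10 stellate cell markers 1 fell, of 10 endothelial markers 2, of 5 cholangiocyte markers 0 and of 14 hepatocyte markers 2. In these lists 0 markers rose. Of the 14 hepatocyte markers, 12 had an estimate below 0 at 4 h (43% of all probe sets). In limma 7 of these markers were lower at an unadjusted p under 0.05 (9.49% of all). The summed signal of the stellate cell markers was 1350 to 2056 at 4 h, against 1405 to 2482 in untreated cells. That of the endothelial markers was 2063 to 3055 at 4 h, against 2124 to 3372, and that of the cholangiocyte markers 1760 to 2280, against 807 to 1766. Sox9 had the highest mean signal among the cholangiocyte markers, 10.7 at 4 h and 9.51 in untreated cells. The median change of the 5 cholangiocyte markers was 0.08. Plasma cells are rich in ER. Of 7 B cell and plasma cell markers, 0 were called, with mean signals between 4.94 and 7.03 at 4 h. The summed signal of these 7 was 471 to 580 at 4 h, against 470 to 499 in untreated cells. The part of the other cells in the fall of the ER genes was not tested.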

How the data were processed

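RNA of 12 cultures was measured on Mouse Gene 1.0 ST arrays. The deposited values are log2 signals that the authors made with Affymetrix Power Tools. They used RMA, a method that corrects background, normalizes between arrays and summarizes each probe set, and the versions are not given in the sources used here. The paper's methods name FARMS for its own analysis. They report a strong batch effect on the mouse hepatocyte chips, adjusted with ComBat, and a bad chip at a time point not analysed here, which was excluded. The deposited values were taken as RMA signals without batch adjustment. No values were missing, and array values give no counts, so the number of arrays limits the precision.

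Of 35556 probe sets, 21789 paired with exactly 1 symbol were tested, and 1621 with several symbols and 12146 not listed were left out. Where a gene had several probe sets, the one with the highest mean signal stands for it. Limma 3.58.1 in R 4.3.3 was fitted over all 12 arrays with factors for time point and replicate number (6 residual and 5.39 prior degrees of freedom), p-values were adjusted after Benjamini-Hochberg over all tested probe sets, and a gene was called at an adjusted p under 0.05. A moderated F test across the later time points was used in place of betr. The fit was tested on simulated data. Replicate numbers come from the labels and were used to pair the arrays. Deviations from the group means correlated in all 18 pairs of the same number (r = 0.555 to 0.881). Pairs of different numbers ran from r = -0.812 to 0.722, and those of replicate 2 with replicate 3 from 0.539 to 0.722. The correlations thus set replicate 1 apart, but they cannot show whether replicates 2 and 3 are paired by number, since these ranges overlap.

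All 36 members are named, the called ones with every array, and up to 2 called genes of each list of other genes. The members and lists were chosen with earlier results of these data known. Motifs were counted in RefSeq windows of GRCm38.p6. Alternatives were no block, a random block, fitting only the groups compared, testing the whole table or only its brighter probe sets (from the median up), quantile normalization, centring, a trended prior, array weights, averaged probe sets, the methods' threshold, and leaving out replicates or arrays. The 1 h time point of the study is not analysed here, and the 20 min group follows the labels.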

Additional observations from a re-analysis of the deposited data

How the results depend on the processing

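Limma called 16 members lower at 4 h. The count fell to 2 with no replicate block, 7 with the block as a random effect, 7 with the compared groups alone, 4 with all probe sets and 0 at the methods' threshold of an adjusted p under 0.01 and at least 2-fold. The whole table moved with them: 3.02% of all probe sets were lower in the fit of the report, against 0.0872%, 0.624%, 1.03% and 0.72% in the first 4 of these settings and 5.07% with array weights, which gave 22 members. The members' count lay between 14 and 22 when only the brighter probe sets (from the median up), quantile normalization, centring, a trended prior, array weights or averaged probe sets were used. Leaving out replicates 1, 2 or 3 gave 0 to 16, and leaving out single untreated or 4 h arrays, chosen after seeing the data, 4 to 16. The count of members higher at 4 h and that of members called between 4 h and 2 h were 0 under every alternative run. At 2 h the count was 0 to 8 and at 20 min 0 to 4 when replicates or arrays were left out, and 0 otherwise. The time course, with 4 members, gave 0 with no replicate block, 2 with the random block, 0 with all probe sets, 9 with the brighter probe sets, 2 with quantile normalization, 18 with array weights, 0 at the methods' threshold and 0 to 13 without a replicate or an array. For 20 min, 2 h and the time course, the shares of all probe sets called under the alternatives are not given here. The median change of the sensors was -0.28 with quantile normalization. Estimates close to 0 changed sign: over the left-out replicates and arrays Erp44 ran from -0.18 to 0.058, Txndc5 from -0.017 to 0.11, Fkbp11 from -0.16 to 0.095, Sec61a1 from -0.081 to 0.025 and Xbp1 from -0.0082 to 0.058, and Xbp1 was -0.013 with array weights. Leaving aside the methods' threshold, which ends all 16 calls, of the values of single members under the alternatives 523 kept direction and call, 138 lost the call, 12 gained it and 11 changed sign. The cause of these differences was not tested, and the 3 arrays in each group limit which small changes of single members can be detected.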

Other observations

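The chaperones of the cytosol and mitochondria had the opposite balance of estimates to those of the ER. Of 23 such genes, 21 had an estimate above 0 at 4 h, against 57% of all probe sets, with a median change of 0.12, and 1 rose and 0 fell in limma at an adjusted p under 0.05. The gene that rose was Hspa4, an HSP110-type exchange factor of the cytosolic HSP70, which measured 11.99, 12.32 and 12.29 at 4 h, against 11.41, 11.85 and 11.91 in untreated cells. It was higher in 3 of 3 replicates, the groups did not overlap, and the change was 0.47 ± 0.06 (limma, adjusted p = 0.0033). At 20 min it stood at 0.02 and at 2 h at 0.17. The difference between these chaperones and those of the ER was not tested.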
